A study of Mus musculus with 10 samples.

Results

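The NF-kB transcription factors and the IkB proteins that restrain them were followed as 10 genes: the subunit genes Rel, Rela, Relb, Nfkb1 and Nfkb2, and the inhibitor genes Nfkbia, Nfkbib, Nfkbie, Nfkbid and Nfkbiz. They were chosen by name, all 10 were found among the 17658 genes of the deposited table, and all 10 were among the 10225 genes tested. The study measured mRNA in B cells of C57BL/6 mice aged 10 weeks, taken from spleen and lymph node and enriched on magnets by removing other cells. Mice carried both wild-type Nr4a1 alleles (Nr4a1+/+) or were homozygous for the knockout allele (Nr4a1-/-). Nr4a1, also called Nur77, encodes an orphan nuclear receptor that is induced by antigen receptor signals. There was 1 unstimulated library per genotype. Another 4 per genotype, with the letters A to D, came from cells kept for 2 hours with anti-IgM at 10 µg/mL, which crosslinks the B cell antigen receptor. Whether the letters are separate mice is not in the labels, so p-values measure the spread between these libraries, which may be technical.

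NF-kB acts as pairs of subunits. RelA, c-Rel and RelB carry a domain that activates transcription, while Nfkb1 and Nfkb2 encode the precursors p105 and p100, which are processed to the DNA-binding subunits p50 and p52. In a resting B cell IkB alpha, beta and epsilon (Nfkbia, Nfkbib, Nfkbie) hold these pairs in the cytoplasm. Antigen receptor signals activate the IkB kinase, which marks the inhibitors for destruction and releases the subunits to the nucleus. Several inhibitor genes are themselves NF-kB targets, which makes a feedback loop. IkBNS (Nfkbid) and IkB zeta (Nfkbiz) differ from the others in that they work in the nucleus, where they modify transcription by the p50 subunit. c-Rel is the subunit most closely tied to antigen-driven B cell growth.

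Because several of these genes moved together after stimulation, the region before their annotated starts was read for the letters of NF-kB binding sequences, and the stretches with a match are shown. Windows of 250 bases before to 50 after each annotated start came from RefSeq (GRCm38.p6, the assembly also called mm10). The motif searched, on both strands and with overlapping matches allowed, was the kappaB consensus with 2 unrestricted bases in its centre. Of the 10 members, 7 had a window: Rel, Rela, Nfkb2, Nfkbia, Nfkbib, Nfkbie and Nfkbid. A match was found for 5 of the 7, against 5.57% of 27025 genes with a window and 7.02% of the 7462 such genes tested here. These shares were not matched for base content or for the number of windows per gene, and Nfkb2 and Nfkbid had 3 windows each. In the stretches, read 5′ to 3′ on the gene's strand, capitals mark the bases covered by a match:
Rel: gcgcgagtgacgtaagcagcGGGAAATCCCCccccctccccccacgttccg
Nfkb2: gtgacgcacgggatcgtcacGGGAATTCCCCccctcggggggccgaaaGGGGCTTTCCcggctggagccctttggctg
Nfkbia: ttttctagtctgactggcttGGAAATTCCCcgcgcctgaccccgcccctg
Nfkbie: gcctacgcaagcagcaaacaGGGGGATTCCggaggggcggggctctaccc
Nfkbid: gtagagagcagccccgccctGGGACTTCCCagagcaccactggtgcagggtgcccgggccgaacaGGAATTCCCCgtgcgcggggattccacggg

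The Rel stretch lies on the minus strand at chr11:23771031-23771081 and begins 112 bases before the annotated start. The Nfkb2 stretch (chr19:46304678-46304755, plus strand) begins 59 bases before the first of 3 annotated starts and holds matches at 3 positions, 2 of them overlapping, and the windows of its other 2 starts also held a match. The Nfkbia stretch (chr12:55492647-55492696, minus strand) begins 49 bases before the start. The Nfkbie stretch (chr17:45555574-45555623, plus strand) begins 126 bases before the start. The Nfkbid stretch (chr7:30422160-30422254, plus strand) begins 246 bases before the second of 3 annotated starts, and the windows of the other 2 held no match. In GENCODE M21 on the same assembly, Nfkbid spans chr7:30421732-30428746 on the plus strand, Nfkb1 spans chr3:135584655-135691547 on the minus strand and Rela spans chr19:5637483-5648130 on the plus strand. In the windows of Rela and Nfkbib these letters were not found. A match describes letters in a window, not binding of a factor, and the gene-level values below do not tell which start was used.

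The libraries as a whole set some limits. Nr4a1 itself was lower in the knockout-labelled libraries by limma, by a small amount and with overlapping groups (log2 difference -0.20, adjusted p = 0.0432). It was at 126 FPKM in both unstimulated libraries, at 744 to 856 FPKM in the stimulated wild-type libraries and at 660.2 to 760.0 FPKM in those labelled knockout. A transcript still at these levels gave no clear check of the labels, and directions are between libraries as labelled. FPKM are fragment numbers divided by transcript length and by the library's mapped fragments, so levels of different genes can be compared per length. The absolute depth is unknown, and relative depth, read from the steps between low values of 57 genes, ran from 0.917 to 1.06. The 8 B cell markers summed to between 1598 and 1713 FPKM after stimulation and to 4358 and 4149 FPKM before it (wild type and labelled knockout). Of 8 T cell markers, 6 (Cd3e, Cd3d, Cd3g, Cd4, Cd8a and Cd8b1) stayed under 1 FPKM in each library. The T cell sum after stimulation, 60.7 to 65.0 FPKM in wild type and 76.6 to 82.0 FPKM in the knockout-labelled libraries, came mostly from Lck and Il7r, and Lck was called higher in the latter (log2 difference 0.48, limma adjusted p = 3.15e-05). Among the B cell markers, 2 were called lower in the knockout-labelled libraries: Cd79b, a chain of the antigen receptor (log2 difference -0.32, limma adjusted p = 0.00054), and Cr2, a complement receptor (-0.52, limma adjusted p = 0.000274). The plasma cell regulator Prdm1 was called higher, from 3.41 to 3.96 FPKM in wild type and from 4.68 to 6.36 FPKM in the other group (0.44, limma adjusted p = 0.0101). All 5 NK cell genes found together stayed under 2 FPKM. Myeloid markers summed to 39.9 to 140 FPKM in the stimulated wild-type libraries and 24.4 to 103 FPKM in those labelled knockout. The highest of these sums was in wild-type library B, where Lyz2 stood at 115 FPKM and in the other 3 wild-type libraries at 26.6 to 31.9. Erythroid markers summed to 62.2 FPKM in unstimulated wild type and to 18.1 FPKM in the unstimulated knockout-labelled library. In bulk RNA, fewer cells of a type and less RNA per cell cannot be told apart.

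After 2 hours of anti-IgM the NF-kB and IkB transcripts were higher as a group than in the unstimulated libraries. The labels give no time in culture for the unstimulated libraries. In each response given here, anti-IgM and 2 hours of culture therefore cannot be told apart. Of the 10 members, 6 were called higher: Nfkbid, Nfkbie, Nfkb1, Nfkbib, Rel and Nfkbiz. None of the 10 was called lower by limma, also at an unadjusted p under 0.05. A call here asks for a limma adjusted p under 0.05 over all genes tested together with a log2 size of 1 or more, in a fit that used every library and had a genotype term. By this rule 7.94% of tested genes were called higher and 12.4% lower. Log2 changes are differences in log2(FPKM + 1). With size left aside all 10 passed upward in this fit of both genotypes, where the background is 31.2% higher and 47.7% lower. Rela is the exception within a genotype, since its response was -0.020 in the knockout-labelled libraries. The median change of the members was 1.45, and that of all tested genes was -0.17.

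**Figure D1:**
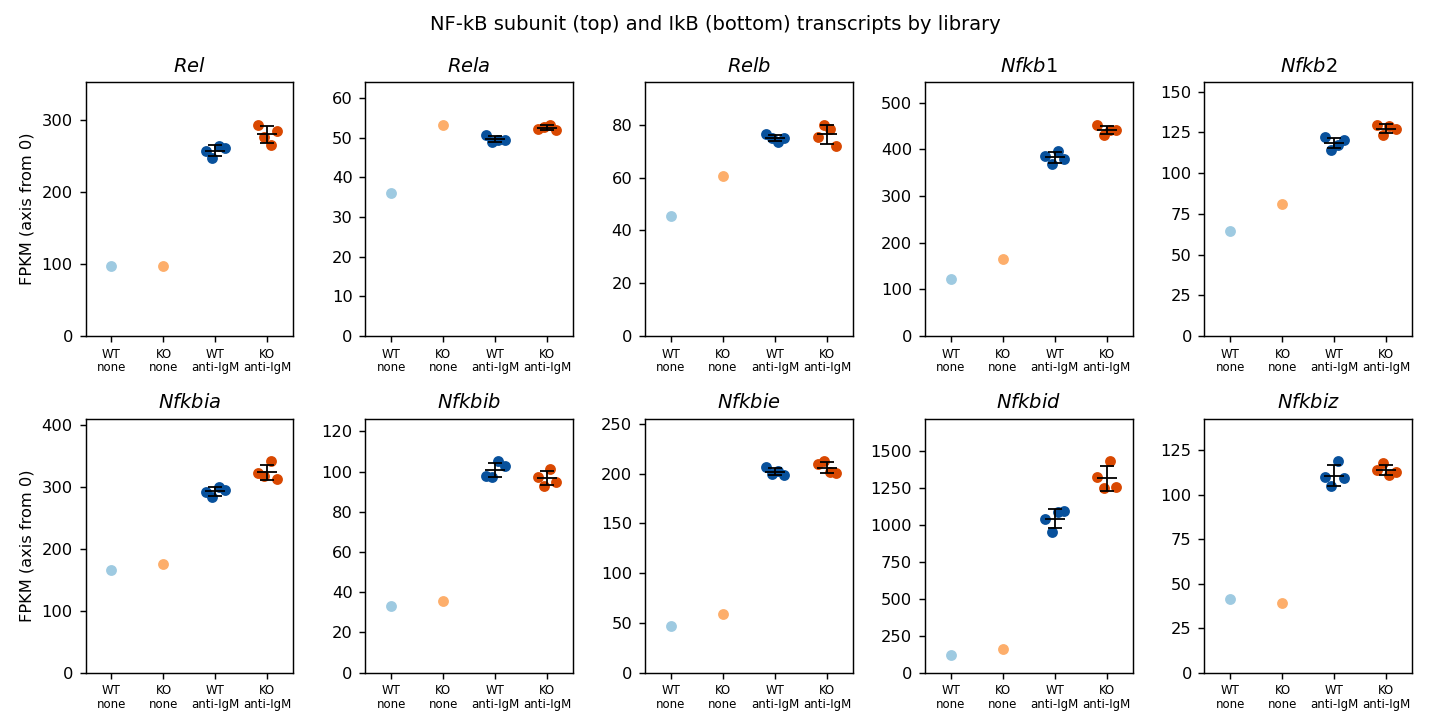
Level of each subunit (top row) and inhibitor (bottom row) transcript in FPKM, 1 point per library, with the mean and SD of each group of 4 stimulated libraries; each axis starts at 0. Nfkbid rises from between 117 and 158 FPKM to between 950.2 and 1429 FPKM, while Rela stays between 36.1 and 53.3 FPKM.

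Among the inhibitors, Nfkbid, the gene of the nuclear IkBNS, had the steepest rise and became the most abundant of the 10. Unstimulated wild-type cells held 117 FPKM, and the stimulated ones (A to D in order) held 1040.1, 950.2, 1086 and 1089.6 FPKM. The library labelled knockout held 158 FPKM before stimulation, and its stimulated counterparts A to D held 1324, 1246, 1429 and 1253 FPKM. Each stimulated library was far above both unstimulated ones, a rise of 3.09 on the log2 scale (SE 0.066, limma adjusted p = 3.08e-11). In linear terms the mean stimulated level was 8.87 times the unstimulated level in wild type and 8.33 times in the knockout-labelled libraries.

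Nfkbie, the gene of IkB epsilon, came second. It went from 47.3 FPKM to 207, 199.7, 203 and 199 FPKM in wild type and from 59.1 FPKM to 209, 212, 202 and 201 FPKM in the knockout-labelled libraries. The log2 rise was 1.93 (SE 0.056, limma adjusted p = 1.91e-10). Nfkbib, the gene of IkB beta, went from 32.9 FPKM to 98.0, 97.5, 105 and 103 FPKM in wild type and from 35.6 FPKM to 97.3, 93.0, 101 and 94.9 FPKM in the knockout-labelled libraries. Its log2 rise was 1.5 (SE 0.050, limma adjusted p = 4.55e-10). Nfkbib shares exon bases with Sirt2 and Ccer2 on the other strand in GENCODE M21, and since the use of strand in counting is not stated in the sources used here, reads of these genes may not be told apart. Sirt2 reached at most 34.5 FPKM.

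Nfkbiz, the gene of the other nuclear inhibitor among the members, rose far less than Nfkbid. In wild type it was 41.5 FPKM before stimulation and 110.0, 105, 119 and 109 FPKM after stimulation. In the knockout-labelled libraries it was 39.3 FPKM before and 114, 118, 111 and 113 FPKM after, so the overall rise was 1.45 on the log2 scale (SE 0.049, limma adjusted p = 5.03e-10). Nfkbia, which encodes the classical inhibitor IkB alpha, started from the highest level of the 10 and rose by less. It went from 166 FPKM to 292, 284, 300.3 and 295 FPKM in wild type. In the knockout-labelled libraries it went from 175 FPKM to 322, 318, 342 and 313 FPKM. The log2 rise of Nfkbia was 0.85 (SE 0.042, limma adjusted p = 7.64e-09), short of the size asked for. Rescaled to TPM it was 1.02, and it was 1.09 with median-of-ratios scaling, where it was called.

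The subunit genes fell into 2 sets, those that rose by more than 1 and those that rose less. Nfkb1, the precursor of p50, was at 123 FPKM in unstimulated wild-type cells and at 386, 369, 397 and 380.2 FPKM after stimulation. The corresponding values in the knockout-labelled libraries were 164 FPKM and 453, 431, 441 and 442 FPKM, and the log2 rise over both genotypes was 1.53 (SE 0.050, limma adjusted p = 3.86e-10). Rel, which encodes c-Rel, began at almost the same level in both genotypes, 97.0 and 96.9 FPKM. It reached 257, 247, 264 and 261 FPKM in stimulated wild-type libraries and 293, 276, 265 and 285 FPKM in those labelled knockout. Its log2 rise was 1.46 (SE 0.047, limma adjusted p = 3.73e-10).

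Nfkb2, the precursor of p52 in the slower alternative pathway, rose by 0.75 (SE 0.050, limma adjusted p = 8.97e-08). It went from 64.7 FPKM to 122, 114, 117 and 120.0 FPKM in wild type and from 81.2 FPKM to 129.8, 124, 129 and 127 FPKM in the knockout-labelled libraries. Relb, the partner of p52, rose by 0.52 (SE 0.072, limma adjusted p = 4.66e-05). The unstimulated levels of Relb were 45.3 (wild type) and 60.7 FPKM. Stimulated wild-type libraries held 76.4, 74.9, 73.5 and 75.0 FPKM of Relb, within the range of those labelled knockout, which held 75.5, 80.1, 78.3 and 72.0 FPKM.

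Rela, which encodes the p65 subunit, changed least and was the lowest of the 10 after stimulation. In wild type it went from 36.1 FPKM to 50.7, 48.8, 49.4 and 49.4 FPKM. In the knockout-labelled libraries it was at 53.2 FPKM before stimulation and at 52.2, 52.6, 53.3 and 51.8 FPKM after it. The pooled log2 rise of 0.21 (SE 0.079, limma adjusted p = 0.0272) rests on the unstimulated wild-type library: without that library the change was -0.020, with a limma adjusted p of 0.640, and it did not pass with quantile normalization (0.13, limma adjusted p = 0.121) or with the letter as a replicate block (0.22, limma adjusted p = 0.127). The adjusted p of Rela over all alternatives ranged from 2.58e-06 to 0.640.

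The order of levels was the same in both stimulated groups. From highest to lowest mean FPKM it ran Nfkbid, Nfkb1, Nfkbia, Rel, Nfkbie, Nfkb2, Nfkbiz, Nfkbib, Relb and Rela. In wild type the ranges of Nfkb2 and Nfkbiz overlapped, as did those of Nfkbiz and Nfkbib, and the other neighbours were apart. In the knockout-labelled libraries no neighbours overlapped. Before stimulation Nfkbia led in both libraries, followed by Nfkb1, Nfkbid and Rel, and Nfkbib was last.

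With unequal rises the make-up of each family changed, which is given as a description with no test. Nfkbid made up 29.0% and 33.8% of the summed FPKM of the 5 inhibitors in the unstimulated libraries (wild type and labelled knockout). After stimulation its share reached 59.6% ± 1.10 and 63.9% ± 1.15 in the same order (SD, n = 4 each). The share of Nfkbia was 40.9% and 37.5% before, and 16.8% ± 0.420 and 15.8% ± 0.199 after (SD, n = 4 each). Within the 5 subunits, Nfkb1 went from 33.6% and 36.0% to 43.4% ± 0.508 and 45.2% ± 0.368 (SD, n = 4 each). Rela went the other way, from 9.87% and 11.7% to 5.61% ± 0.105 and 5.37% ± 0.148 (SD, n = 4 each). Rel transcripts outnumbered Rela transcripts per length by 2.69 and 1.82 times before stimulation and by 5.19 ± 0.139 and 5.33 ± 0.288 times after it (SD, n = 4 each). The 3 cytoplasmic inhibitors summed to 0.672 of the subunits' FPKM in unstimulated wild type and to 0.675 ± 0.00531 (SD, n = 4) after stimulation. In the knockout-labelled libraries that ratio was 0.591 before and 0.641 ± 0.0205 (SD, n = 4) after.

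**Figure D2:**
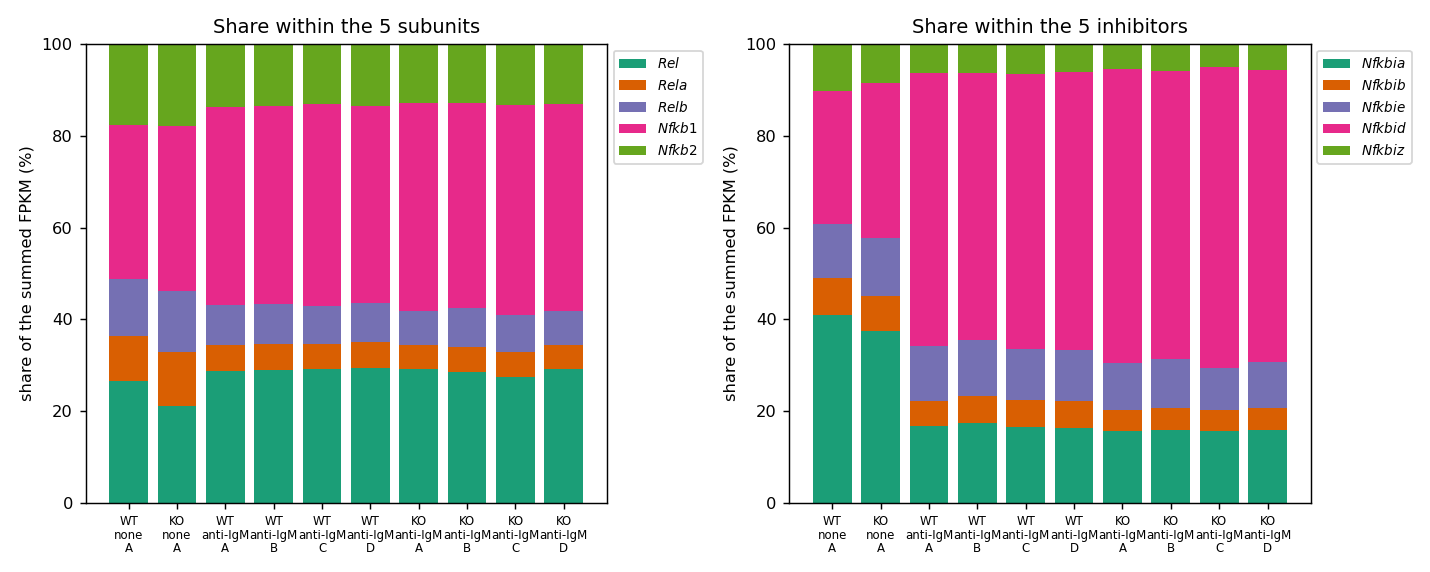
Share of each transcript in the summed FPKM of the 5 subunits (left) and of the 5 inhibitors (right), 1 bar per library, in percent. In the right panel the Nfkbid segment grows from 29.0% and 33.8% in the 2 unstimulated libraries to between 58.1% and 65.4% in the 8 stimulated ones.

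The genotypes were then compared among the 8 stimulated libraries. Here 4 of the 10 members were called higher in the knockout-labelled libraries and none was called lower: Nfkbid, Nfkb1, Nfkbia and Nfkb2. A call is a limma adjusted p under 0.05 over all genes tested, at any size, and 3.91% of tested genes were called higher and 5.81% lower. The differences were small, with a median of 0.091 over the members and -0.024 over all tested genes. For 6 members, Rel, Rela and the 4 called genes, all 4 knockout-labelled libraries lay above all 4 wild-type libraries, which holds for 5.96% of tested genes. The reverse order held for 0 members and 9.57% of tested genes. Of the marker genes, Lck and Prdm1 differed in the same direction and Cd79b and Cr2 in the opposite one, while the T cell genes Cd3e, Cd3d and Cd3g were near 0. The part of these in the members' differences was not tested.

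Nfkbid differed most. Wild-type libraries averaged 1042 ± 65.0 FPKM and knockout-labelled ones 1313 ± 84.7 FPKM (SD, n = 4 each), a log2 difference of 0.33 (SE 0.055, limma adjusted p = 0.00459). Nfkb1 was at 383 ± 12.0 and 442 ± 9.12 FPKM (SD, n = 4 each), a log2 difference of 0.21 (SE 0.028, limma adjusted p = 0.00139). At an unadjusted p under 0.05, 6 members were higher and 0 lower by limma, against 7.94% and 14.2% of tested genes. Nfkbid and Nfkb1 were called in each of the 19 alternatives tried for this comparison.

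Nfkbia averaged 293 ± 6.67 FPKM in the wild-type group against 324 ± 12.4 FPKM in the other (SD, n = 4 each), a log2 difference of 0.14 (SE 0.031, limma adjusted p = 0.0172). Its call was lost without wild-type library B, the one with the highest myeloid sum (0.13, limma adjusted p = 0.0527), and after quantile normalization (0.082, limma adjusted p = 0.129). The adjusted p of Nfkbia ranged from 0.0119 to 0.129 over the alternatives. Wild-type library B also had the lowest stimulated wild-type value for 8 of the 10 members, all but Relb and Nfkbie. For all tested genes the lowest library was not counted, so such numbers have no baseline here. Library B labelled knockout, where Lyz2 stood at 82.6 FPKM, was the lowest of its group for 4 members, Nfkb1, Nfkb2, Nfkbib and Nfkbid. Library D of that group, with Lyz2 at 17.4 FPKM, was also the lowest for 4, Rela, Relb, Nfkbia and Nfkbie. Library C, with Lyz2 at 15.8 FPKM, was the lowest for 2, Rel and Nfkbiz. The part of myeloid RNA in these differences was not tested.

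Nfkb2 was at 119 ± 3.37 and 127 ± 2.70 FPKM (SD, n = 4 each), a log2 difference of 0.10 (SE 0.027, limma adjusted p = 0.0452). This call held in 8 of 19 alternatives, with adjusted p from 0.0244 to 0.115, and it was lost when any 1 of 6 libraries was left out: wild-type B, C or D, or A, C or D of those labelled knockout. With the letter as a replicate block the adjusted p of Nfkb2 was 0.0575. Its exon bases are shared on the other strand with Psd, which reached 0.17 FPKM at most, and with the noncoding AC114539.1, whose level was not analysed here.

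The c-Rel and p65 genes separated the 2 groups without passing the test. Rel stood at 257 ± 7.22 and 279.7 ± 12.2 FPKM (SD, n = 4 each; log2 difference 0.12, SE 0.035, limma adjusted p = 0.0640). It passed with median-of-ratios scaling (0.16, limma adjusted p = 0.0251) and without library C labelled knockout (0.14, limma adjusted p = 0.0281), and the adjusted p ranged from 0.0251 to 0.158. Rela stood at 49.6 ± 0.779 and 52.5 ± 0.634 FPKM (SD, n = 4 each; log2 difference 0.080, SE 0.023, limma adjusted p = 0.0621). It passed in 3 of 19 alternatives, with adjusted p from 0.0222 to 0.166.

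For the remaining 4 members the groups overlapped. The log2 difference was 0.028 for Relb (limma adjusted p = 0.700), 0.028 for Nfkbie (limma adjusted p = 0.594) and 0.041 for Nfkbiz (limma adjusted p = 0.589). It was -0.061 for Nfkbib (limma adjusted p = 0.349), the only member lower in the knockout-labelled libraries on the deposited scale and on each of the 3 other scalings. The other 9 were higher on all 4 scalings.

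**Figure D3:**
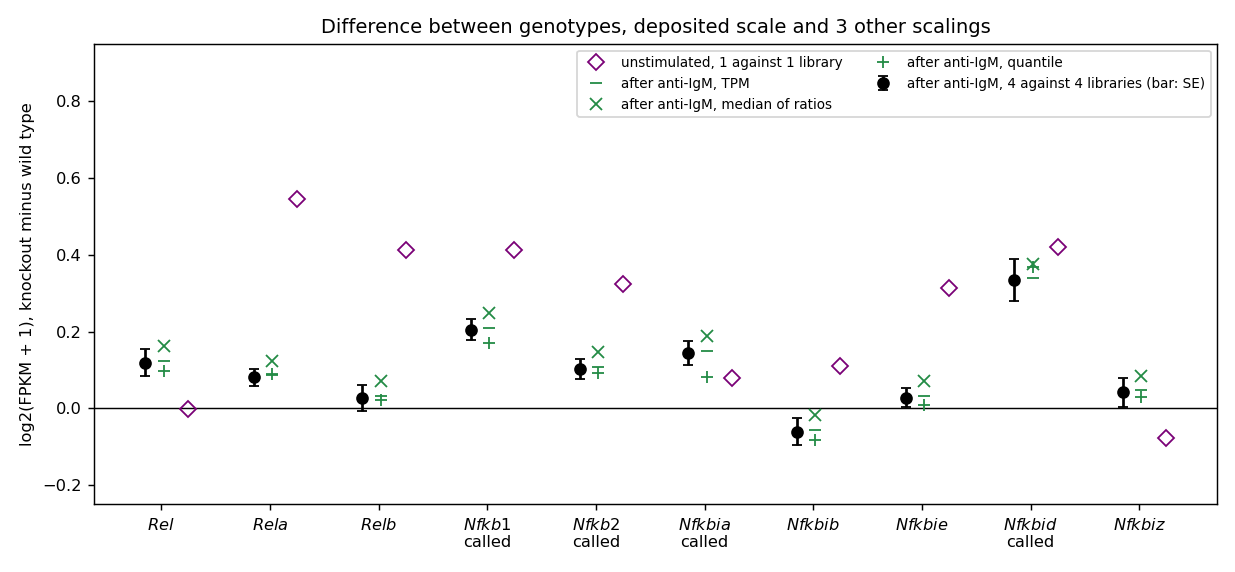
Difference between genotypes in log2(FPKM + 1) for each member. Black points with SE bars compare the 4 and 4 stimulated libraries, green marks give the same under 3 other scalings, and open diamonds compare the single unstimulated libraries. After stimulation Nfkbid (0.33) and Nfkb1 (0.21) differ most, whereas before it Rela (0.55) does.

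In the unstimulated pair, 1 library per genotype and so with no replicate check, several members were already higher in the library labelled knockout. A log2 difference of 0.3 or more was found for 6 of the 10: Rela, Nfkbid, Nfkb1, Relb, Nfkb2 and Nfkbie. Such a difference was seen for 18.4% of tested genes, and 9.68% were lower by as much. The differences were 0.55 for Rela, 0.42 for Nfkbid, 0.41 for both Nfkb1 and Relb, 0.32 for Nfkb2 and 0.31 for Nfkbie. Nfkbib (0.11) and Nfkbia (0.078) differed less, and Rel (-0.0028) and Nfkbiz (-0.077) were at or below the wild-type level. Over all tested genes the median was 0.067 as deposited, where the FPKM of the wild-type library summed to 674961 and those of its counterpart to 595500. With rescaling to TPM the median moved to 0.24, and Rel (0.18) and Nfkbiz (0.10) became higher. With median-of-ratios scaling and quantile normalization the median was 0.049 and 0.0086, and the difference of Rela was 0.53 and 0.50. The count of members at 0.3 or more was 6 with TPM, 5 with median-of-ratios scaling (without Nfkbie, at 0.29) and 4 with quantile normalization (without Nfkb2 and Nfkbie, both at 0.28). The share of all tested genes at 0.3 or more was not counted on these scalings, so these counts have no baseline.

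The response to anti-IgM was then compared between genotypes. The difference in response was tested with limma in a fit with 1 mean per group. Its spread comes from the 8 stimulated libraries alone, and the lone unstimulated library of each genotype is assumed to vary like them. All members share these 2 libraries, so their results are not independent. The response was called smaller in the knockout-labelled libraries for 5 of 10 members and larger for none, where 14.7% of all tested genes were called smaller and 4.18% larger. At an unadjusted p under 0.05 in limma the response was smaller for 5 members and larger for 0, beside 24.8% and 8.35% of all tested genes. The median over all tested genes was -0.096.

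Rela responded by 0.45 in wild type and by -0.020 in the knockout-labelled libraries, a difference of -0.47 (SE 0.052, limma adjusted p = 0.00182). Relb responded by 0.71 and 0.33, a difference of -0.39 (SE 0.076, limma adjusted p = 0.00920). Nfkbie responded by 2.07 and 1.79, a difference of -0.29 (SE 0.058, limma adjusted p = 0.00987). These 3 were called in all 17 alternatives. None of these left out an unstimulated library, so they do not test the dependence on those 2 libraries. Before stimulation the genotypes differed by 0.55 for Rela, 0.41 for Relb and 0.31 for Nfkbie. After it they differed by 0.08, 0.028 and 0.028 in the same order. Median-of-ratios scaling brings the median response of all genes to 0.049 and 0.027. With it the differences in response were -0.40 for Rela, -0.32 for Relb and -0.22 for Nfkbie.

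The other 2 calls were less firm. Nfkb2 responded by 0.86 and 0.64, a difference of -0.22 (limma adjusted p = 0.0341). Nfkb1 responded by 1.63 and 1.42, a difference of -0.21 (limma adjusted p = 0.0442). With median-of-ratios scaling neither passed (limma adjusted p = 0.195 and 0.268), and over the alternatives the adjusted p ran from 0.00258 to 0.195 for Nfkb2 and from 0.00246 to 0.268 for Nfkb1. The call of Nfkb2 was also lost without library D of either genotype. That of Nfkb1 was lost without wild-type library A, C or D, and without library B, C or D of those labelled knockout. For Nfkbid, called higher after stimulation, the difference in response was -0.087 (SE 0.12, limma adjusted p = 0.672), where the genotypes differed by 0.42 before stimulation and by 0.33 after it. Rel (0.12, limma adjusted p = 0.309), Nfkbiz (0.12, limma adjusted p = 0.375), Nfkbia (0.066, limma adjusted p = 0.550) and Nfkbib (-0.17, limma adjusted p = 0.157) did not pass. Rescaled to TPM, Nfkbib passed at -0.35 (limma adjusted p = 0.00759), and its adjusted p ranged up to 0.513 over the alternatives.

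**Figure D4:**
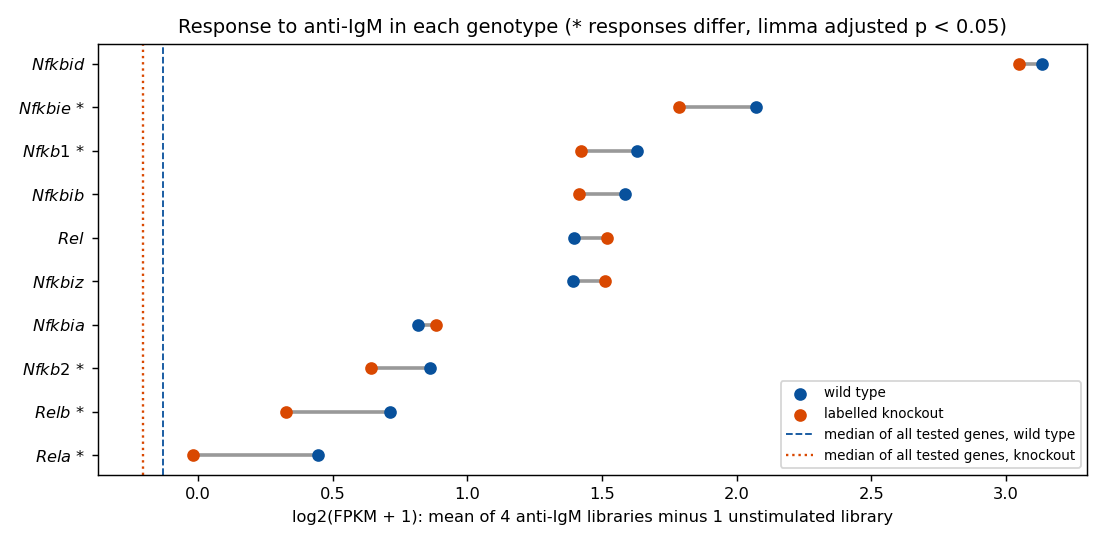
Response of each member to anti-IgM in log2(FPKM + 1), the mean of 4 stimulated libraries minus the 1 unstimulated library, in wild type (blue) and in the knockout-labelled libraries (orange), with the median of all tested genes as vertical lines. Rela, at the bottom, moves by 0.45 in wild type and by -0.020 in the knockout-labelled libraries, and Nfkbid, at the top, moves by about 3 in both.

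Genes whose profile over the 10 libraries was most like that of a member were found by the root mean square difference of log2(FPKM + 1) after centring each gene on its own mean. Since 2 libraries are unstimulated and 8 stimulated, the stimulation step dominates this measure. For Nfkbid the nearest were Maff (0.060), a small basic leucine zipper factor, Slc15a3 (0.11), a lysosomal peptide transporter, and Myc (0.14). Maff, at 4.91 and 7.32 FPKM before stimulation, was also called higher in the knockout-labelled libraries (log2 difference 0.41, limma adjusted p = 9.96e-05). For Rel they were Qtrtd1 (0.053), Gnl2 (0.057) and Etf1 (0.059), which take part in tRNA modification, ribosome assembly and translation termination. For Nfkbia they were Erbb2ip (0.042), a scaffold protein, Cxcr5 (0.050), the follicle-homing chemokine receptor, and Dnajc21 (0.052). Erbb2ip was called higher in the knockout-labelled libraries (log2 difference 0.13, limma adjusted p = 0.0128). The other genes named as most like a member were not called between genotypes. A genotype difference also enters the measure, so sharing one with a member is partly built into the choice.

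The genes upstream of the members were counted the same way. Of 20 activators, which include the IkB kinase subunits and ubiquitin ligases, 0 were called higher and 2 lower by limma after anti-IgM, with a median of -0.16. The shares over all tested genes are 7.94% higher and 12.4% lower. At an unadjusted p under 0.05 and any size 3 of the 20 were higher and 11 lower, where 31.6% and 48.4% of all tested genes were. Birc2, a ubiquitin ligase, fell by 1.12 (limma adjusted p = 2.11e-08). Between genotypes 1 of the 20 was called, higher in the knockout-labelled libraries, beside 3.91% higher and 5.81% lower of all tested genes. At an unadjusted p under 0.05 there were 3 higher and 5 lower, beside 7.94% and 14.2% of all tested genes.

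Of 14 brakes on the pathway 13 were tested, and 1 was called higher by limma after anti-IgM and none lower, where the background is 7.94% and 12.4%. At an unadjusted p under 0.05 and any size 3 of the 13 were higher and 8 lower, beside 31.6% and 48.4% of all tested genes. The gene called was Tnfaip3, which encodes the deubiquitinase A20, at 31.4 and 36.6 FPKM before and 222 ± 13.9 and 246 ± 6.78 FPKM (SD, n = 4 each) after, with a log2 rise of 2.75 (limma adjusted p = 1.99e-11). Tnfaip3 did not pass between genotypes (0.15, limma adjusted p = 0.0665). Of the 13 brakes 1 was called between genotypes, higher in the knockout-labelled libraries, beside 3.91% higher and 5.81% lower of all tested genes. It was Pdlim2, a ligase that acts on nuclear p65 (0.23, limma adjusted p = 0.0195). Of 11 atypical inhibitors and partners 10 were tested. After anti-IgM 1 of the 10 was called higher and 1 lower by limma, beside 7.94% and 12.4% of all tested genes. Bcl3, another nuclear IkB, fell where Nfkbid and Nfkbiz rose, from 30.5 and 43.5 FPKM to 13.0 ± 1.27 and 15.4 ± 1.24 FPKM (SD, n = 4 each), a limma change of -1.31 with adjusted p = 1.15e-07. Trib3, a pseudokinase, rose by 2.27 (limma adjusted p = 1.57e-09). None of these 10 was called between genotypes by limma. At an unadjusted p under 0.05 there were 2, both higher in the knockout-labelled libraries, beside 7.94% higher and 14.2% lower of all tested genes.

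Known NF-kB targets were followed as a last list. Of 24 targets, which include Tnfaip3 and Bcl3 from the lists above, 13 were called higher and 1 lower after anti-IgM, beside 7.94% and 12.4% of all tested genes, with a median of 1.17. The largest rises were Myc (3.33), a growth regulator, Irf4 (3.11), a B cell fate factor, Ccl4 (2.83), a chemokine, and Bcl2l1 (2.80), a survival gene, with limma adjusted p from 1.04e-11 for Irf4 to 2.06e-09 for Ccl4. Between the stimulated genotypes 7 targets were called higher and 3 lower, with a median of 0.11, against backgrounds of 3.91% and 5.81%. The largest differences were Ccl4 (1.02), Ccl3 (0.92) and Il10 (0.71) upward and Stat5a (-0.88) downward. Stat5a, a transducer of cytokine signals, averaged 43.9 ± 1.80 FPKM against 23.4 ± 0.911 FPKM in knockout-labelled libraries (SD, n = 4 each; limma adjusted p = 2.45e-06). Il10 was low, at 3.15 ± 0.981 and 5.74 ± 1.35 FPKM (SD, n = 4 each), and its groups overlapped.

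**Figure D5:**
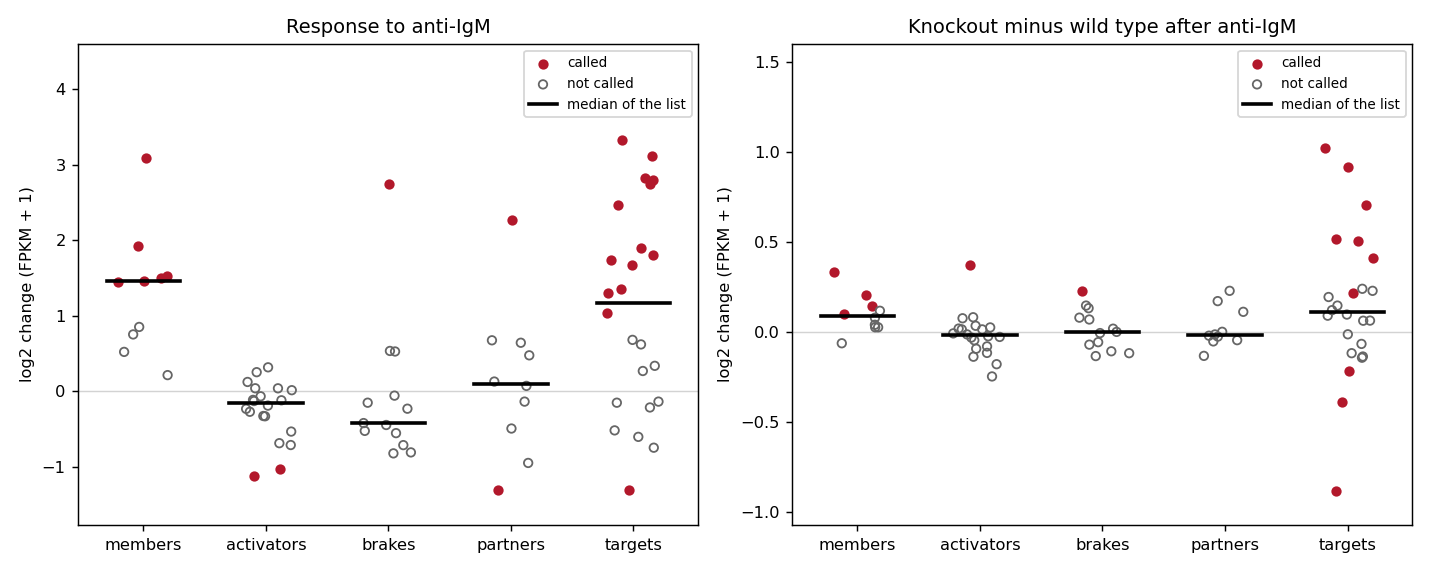
Log2 change in FPKM + 1 of each gene in the members and in the 4 pathway lists, for the response to anti-IgM (left) and for knockout minus wild type after anti-IgM (right); filled points were called and bars are list medians. On the left the members (median 1.45) and targets (1.17) lie above the activators (-0.16) and brakes (-0.42).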

How the data were processed

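Gene expression was measured by RNA-seq from TruSeq Stranded mRNA libraries, per the labels. The deposited table holds FPKM made by the authors with STAR 2.4, RSEM 1.2.14 and mm10, per the submitters' processing notes. The annotation, filters and strand setting are not given in the sources used here. Genes averaging 1 FPKM or more across the 10 libraries were tested on log2(FPKM + 1) with limma 3.58.1 (R 4.3.3, trend on) and Benjamini-Hochberg adjustment, and the script was tested on simulated data. This scale understates changes of low genes. Absolute depth is unknown, so no counting interval was given. The 10 genes, the pathway lists and the tests were chosen with earlier results of these data known. From each pathway list the text names up to 4 called genes, those of largest absolute log2 change. A few of these are not reported here. Alternatives were pseudocounts of 0.1 and 5, no filter, a minimum mean of 5 FPKM, and TPM, median-of-ratios and quantile scaling. Others were fits without trend or with robust estimation, all 10 libraries, a replicate block and leaving out each library. An unstimulated library was left out only for the response to anti-IgM.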

Additional observations from a re-analysis of the deposited data

Results flagged for a closer look

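The response to anti-IgM differed between genotypes in the limma test of the difference for 5 members, with changes in log2(FPKM + 1) of -0.47 for Rela, -0.39 for Relb, -0.29 for Nfkbie, -0.22 for Nfkb2 and -0.21 for Nfkb1 (response in the libraries labelled knockout minus response in wild type). Each value rests on the same 2 unstimulated libraries, 1 per genotype, and the part of those libraries' composition was not tested. Trib3 stood apart in stimulated wild-type library A, at 17.77 FPKM against 13.96 to 14.43 FPKM in the other 3. It was 1 of 50 groups of 4 libraries examined, where chance alone gives about 1 in 20.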

How the results depend on the processing

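A pseudocount of 5 lowered the genes called for the response to anti-IgM from 2078 to 1132, and rescaling to TPM raised those called for the difference in response from 1931 to 3630. Scaling also moved the split of calls: the response gave 812 higher and 1266 lower on the deposited scale, 1102 and 1071 with TPM, 1155 and 801 with median-of-ratios and 965 and 921 with quantile normalization. The genotype difference gave 400 and 594, then 381 and 481, 559 and 377, and 478 and 438. The difference in response gave 427 and 1504, then 175 and 3455, 443 and 849, and 874 and 1207. Leaving out 1 library gave 712 (without wild-type B) to 921 genotype calls, against 994. The difference in response changed sign, without passing the test, for Rel (-0.052), Nfkbiz (-0.053) and Nfkbia (-0.11) with TPM and for Nfkbia (-0.0016) with quantile normalization. With 1 library left out, the response of Rela ranged from -0.020 to 0.45. The cause of these changes was not tested. Same-letter deviations correlated between -0.12 and 0.044, and those of different letters between -0.087 and 0.12, so this measure showed no pairing by letter. Such values do not exclude pairing, since library B held the most Lyz2 in both stimulated groups. With a replicate block 740 genes were called between genotypes and 2039 for the response, and of the members' calls that of Nfkb2 was lost (adjusted p = 0.0575).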
